A study of Mus musculus with 6 samples.

Results

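The genes described here are 43 interferon-stimulated genes of the mouse, chosen by symbol from the 25755 genes of an optic nerve RNA-sequencing table. Optic nerves were taken at an age of 3 months from 6 mice of the genotype NF1flox/flox;hGFAP-Cre. Sham surgery had been performed in 3 of them (mice 1, 2 and 3) and bilateral optic nerve crush (ON-CR) in the other 3 (mice 4, 5 and 6). Every mouse, sham controls included, carried the floxed Nf1 alleles with the hGFAP-Cre transgene, which deletes Nf1 in neuroglial progenitors and their progeny but not in microglia, endothelium or blood-derived cells, so no Nf1-intact nerve entered the comparison. The study used this injury to ask whether damage to the nerve is enough for optic glioma to form, and the RNA was taken from whole nerves, weeks after the crush.

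Interferons are secreted proteins that cells release when they sense foreign or misplaced nucleic acid, or, for interferon gamma, when T cells and natural killer cells are activated. Type I interferons act through the receptor chains Ifnar1 and Ifnar2, and the kinases Jak1 and Tyk2 then phosphorylate STAT proteins, Stat2 among them, which bind Irf9 to form the complex ISGF3. Interferon gamma acts through Ifngr1 and Ifngr2, and its signal is carried by STAT dimers. ISGF3 binds the interferon-stimulated response element (ISRE) in promoters such as those of the Ifit genes, and STAT dimers bind the gamma-activated site (GAS) in promoters such as that of Irf1. In the central nervous system microglia, astrocytes, endothelium and infiltrating leukocytes can all raise these genes.

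The promoter sequences show how many of the 43 genes carry the letters that these complexes read. In RefSeq promoters on GRCm38.p6, 35 promoters were listed for 30 of the 43 genes, and the 250 bases before each transcription start were searched on both strands for the ISRE core GAAANNGAAA and the palindromic GAS core TTCNNNGAA. The ISRE core was present in 15 of the 35 promoters (42.9%), against 2.98% of all 32851 promoters of the same length. The GAS core was present in 7 (20.0%), against 7.02%, and both were present in 4 (11.4%), against 0.332%. The stretches below hold the cores and their flanks, read 5′ to 3′ on the strand of the gene, and capitals mark the bases of an ISRE or GAS core on either strand, merged where cores overlap. Isg15, Ifit1, Ifit3 and Ifit3b stand for genes with the ISRE core alone, the GTPases Gbp7 and Igtp and the effector Bst2 hold both cores, and Irf1 holds the GAS core alone.
Isg15 (chr4:156200857-156200914, minus strand): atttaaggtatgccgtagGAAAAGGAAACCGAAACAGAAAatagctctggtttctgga
Ifit1 (chr19:34640767-34640831, plus strand): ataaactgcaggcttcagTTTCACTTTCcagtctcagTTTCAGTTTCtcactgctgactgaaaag
Ifit3 (chr19:34583355-34583434, plus strand): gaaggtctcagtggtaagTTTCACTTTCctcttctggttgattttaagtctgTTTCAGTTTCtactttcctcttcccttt
Ifit3b (chr19:34607751-34607830, plus strand): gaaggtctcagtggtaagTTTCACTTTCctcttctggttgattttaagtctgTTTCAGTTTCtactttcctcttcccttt
Gbp7 (chr3:142530212-142530310, plus strand): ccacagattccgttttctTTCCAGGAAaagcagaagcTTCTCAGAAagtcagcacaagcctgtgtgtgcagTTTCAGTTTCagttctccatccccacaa
Igtp (chr11:58199493-58199549, plus strand): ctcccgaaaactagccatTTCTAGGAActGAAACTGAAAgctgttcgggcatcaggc
Bst2 (chr8:71537569-71537626, minus strand): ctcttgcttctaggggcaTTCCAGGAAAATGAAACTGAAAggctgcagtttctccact
Irf1 (chr11:53769906-53769950, plus strand): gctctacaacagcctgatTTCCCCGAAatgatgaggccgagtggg
Ifit3 and Ifit3b had the same letters throughout this stretch. In Bst2 the end of the GAS core is the start of an ISRE core. A match describes these letters and does not show that a factor was bound, and a missing match covers only the searched window. For Dhx58, Iigp1, Mx1, Mx2, Zbp1, Ly6e, Usp18, Ifi204, Oas2, Ifi27, Rtp4, Ifi27l2a and Parp14 no promoter was analysed here.

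The libraries held an estimated 17414043 to 23621001 reads, and each ON-CR library was shallower than each sham library. The 6 oligodendrocyte markers checked, Mbp and Mog among them, were all abundant in every nerve and all fell after ON-CR. Xist, which is made from the inactive X chromosome, was at 2.14 to 30.9 normalized counts in the sham mice and at 2708 to 6357 in the ON-CR mice, while the Y-linked Ddx3y was at 1291 to 1645 in the sham mice and at 976, 4.19 and 0 in ON-CR mice 4, 5 and 6. The library of mouse 4 therefore held both transcripts, and the labels do not say whether nerves of several mice were pooled in it. Sex and surgery cannot be told apart in these libraries. The airway transcript Bpifa1 was at 7568, 4579 and 5894 normalized counts in sham mouse 3 and ON-CR mice 5 and 6, and at 0 to 22.3 in the other mice. Nf1 transcript was at 343 to 447 normalized counts in the sham nerves and 380 to 438 in the ON-CR nerves, which is no test of the deletion because every mouse carried it.

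The first comparison asked which of the 43 genes differed between ON-CR and sham nerves. None of the 43 passed an adjusted p of 0.05 in limma's moderated test, run on log2(normalized count + 1) over all 25755 genes, of which 2.10% passed and 0.971% passed with higher values after ON-CR. At an unadjusted p under 0.05 there were 13 members with higher and 1 with lower values after ON-CR, that is 14 of 43 (32.6%) against 15.6% of all genes. The log2 fold change was positive for 39 of the 43, where 52.8% of all genes were positive, and its median was 0.519 against 0.028 over all genes. In 9 members each ON-CR mouse lay above each sham mouse (20.9%, all genes 10.5%), namely Isg15, Ifi204, Eif2ak2, Oasl1, Gbp2, Ifitm3, Trim30a, Parp14 and Xaf1. Cmpk2 alone had each ON-CR mouse below each sham mouse (all genes 11.0%). In either direction the groups were separate in 10 of the 43 (23.3%), close to the 21.6% of all genes.

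The number called changed with the tool, with the scaling and when single mice were left out. Limma with voom and sample quality weights called 7 members (Isg15, Ifi204, Eif2ak2, Oasl1, Ifitm3, Parp14 and Xaf1) where 3.34% of all genes were called. The voom fit took rounded estimated reads scaled by library total, so it changed the scaling as well as the tool. In it the median log2 fold change of all genes was 0.152, against 0.028 with the deposited normalization. Robust moderation called Parp14 alone, where 2.76% of all genes were called. Scaling by library total alone called 2, Ifitm3 and Parp14, where 2.39% of all genes were called. Without ON-CR mouse 5 there were 11 called members where 3.32% of all genes were called, and without sham mouse 1 there was 1, Ifi44, where 0.745% were called. Without ON-CR mouse 6 the median log2 fold change of the 43 dropped to 0.229, with 0 called (all genes 0.260%). Without sham mouse 2 the median was 0.338, with 0 called (all genes 123 of 25755). Without ON-CR mouse 4, which held both sex-linked transcripts, the median was 0.516 with 0 called (all genes 462 of 25755). The plot of the leave-one-out fits gives the median and the number called for each mouse.

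**Figure D1:**
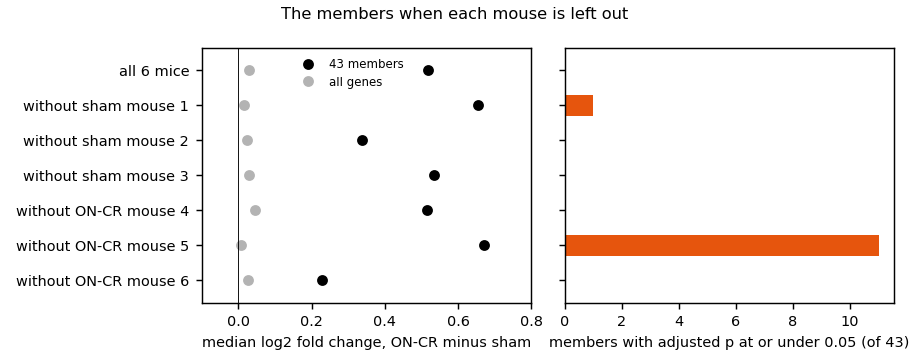
The left panel plots the median log2 fold change (ON-CR minus sham) of the 43 members in black and of all genes in grey, with all 6 mice and with each mouse left out, and the right panel plots how many members had an adjusted p at or under 0.05 by limma. The members' median lies between 0.229 and 0.67 in the leave-one-out fits, and the number called is 11 without ON-CR mouse 5 and 0 or 1 in the others.

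The lowest p-values by limma belonged to Parp14, Ifi204, Ifitm3 and Oasl1. Parp14, an ADP-ribosyltransferase that interferon induces, lies at chr16:35832874-35871544 on the minus strand (GRCm38). The sham nerves held 129, 70.8 and 129 normalized counts of it (mice 1, 2 and 3) and the ON-CR nerves 240, 198 and 268 (mice 4, 5 and 6). The lowest ON-CR value lay above the highest sham value, the log2 fold change was 1.14 (SE 0.26, n = 3 mice a group), and the adjusted p by limma was 0.0562, with 0.0205 to 0.265 over the alternative fits. Its exons overlap those of Gm49730 on the same strand, so that reads of the 2 genes may have been split between them.

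Ifi204, a member of the interferon-inducible p200 family of DNA sensors, lies at chr1:173747293-173766943. The sham nerves held 125, 67.4 and 103 normalized counts and the ON-CR nerves 289, 133 and 277. Mouse 5 stood only just above the highest sham mouse, and the other ON-CR mice lay well above it. The log2 fold change was 1.20 (SE 0.33, adjusted p by limma 0.101, range 0.0113 to 0.369 over the alternatives). Of the 50-base words in its longest transcript, 30.2% also occur in transcripts of other genes, mostly Ifi211, so its count is uncertain.

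Ifitm3, a membrane protein that hinders the entry of enveloped viruses, had the highest level per kilobase of transcript of the 43 genes in sham nerves (7023 normalized counts per kilobase). It was at 5501, 4116 and 4668 normalized counts in the sham mice and at 7651, 5687 and 9509 in the ON-CR mice. The groups did not overlap, although sham mouse 1 and ON-CR mouse 5 nearly met. The log2 fold change was 0.66 (SE 0.18), with an adjusted p by limma of 0.106 (0.0149 to 0.388 over the alternatives).

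Oasl1, an OAS-like protein without synthetase activity that restrains the translation of Irf7, was at 69.0, 19.5 and 68.6 normalized counts in the sham mice and at 148, 114 and 140 in the ON-CR mice. All ON-CR mice were above all sham mice, and sham mouse 2 stood far below the other sham mice. The log2 fold change of 1.53 (SE 0.43) was the largest of the 43, and its adjusted p by limma was 0.112 (0.0405 to 0.356 over the alternatives).

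**Figure D2:**
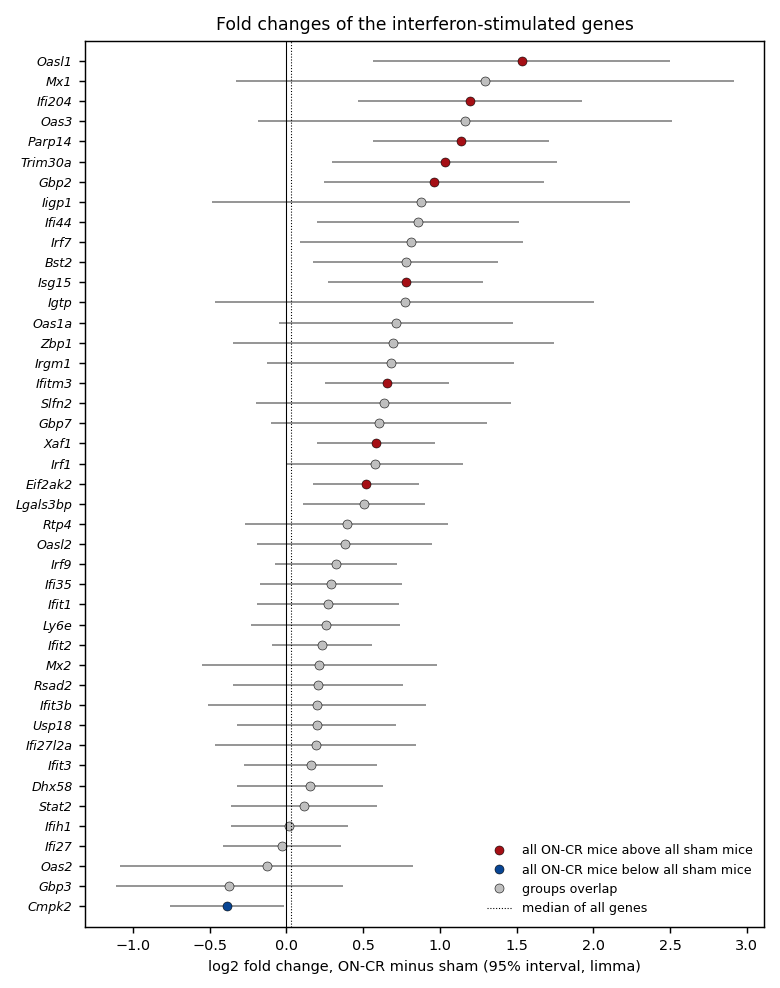
Each point is the log2 fold change (ON-CR minus sham) of 1 of the 43 members with its 95% interval from limma, ordered by size, red where all ON-CR mice lay above all sham mice, blue where all lay below and grey where the groups overlapped. The points run from -0.39 for Cmpk2 to 1.53 for Oasl1, and 39 of 43 lie to the right of 0.

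Among the regulators, Irf9, the DNA-binding subunit of ISGF3, was at 1194, 799 and 878 normalized counts in the sham mice and at 1178, 982 and 1411 in the ON-CR mice, so that the groups overlapped (log2 fold change 0.32, SE 0.18, adjusted p by limma 0.427). Stat2, its partner in ISGF3, had a log2 fold change of 0.11 (SE 0.21), and without ON-CR mouse 6 it was -0.10. Irf7, which amplifies type I interferon production and is itself interferon-induced, was at 901, 298 and 477 in the sham mice against 776, 822 and 1098 in the ON-CR mice. Sham mouse 1 therefore exceeded ON-CR mice 4 and 5, and the log2 fold change was 0.81 (SE 0.33, adjusted p by limma 0.262). Irf1, the GAS-driven regulator induced by interferon gamma, was at 417, 387 and 449 in the sham mice and at 569, 422 and 996 in the ON-CR mice. Here mouse 6 stood apart, mouse 5 lay inside the sham range, and the log2 fold change was 0.57 (SE 0.26).

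The ISG15 system attaches a ubiquitin-like protein to targets. Isg15, the modifier itself, was at 503, 323 and 338 normalized counts in the sham mice and at 625, 506 and 876 in the ON-CR mice (log2 fold change 0.78, SE 0.23, adjusted p by limma 0.122). The groups were separate by a narrow gap between sham mouse 1 and ON-CR mouse 5. Usp18, the protease that removes Isg15 and damps signalling at Ifnar2, was at 1709, 808 and 1010 in the sham mice and at 1375, 1132 and 1355 in the ON-CR mice. The highest value of all 6 was in a sham mouse, and the log2 fold change was 0.20 (SE 0.23).

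The 5 nucleic acid sensors had log2 fold changes from 0.02 to 1.20. Eif2ak2 (PKR), the double-stranded RNA kinase that halts translation, was at 552, 541 and 636 normalized counts in the sham mice and at 962, 668 and 870 in the ON-CR mice. Its groups were separate, with a log2 fold change of 0.52 (SE 0.16, adjusted p by limma 0.135). Ifih1 (MDA5), which detects long double-stranded RNA, was at 379, 290 and 362 against 379, 288 and 378, and its log2 fold change was 0.02 with a 95% interval from -0.36 to 0.40. Dhx58 (LGP2), which modulates MDA5, had a log2 fold change of 0.15 (SE 0.21). Zbp1, a sensor of Z-form nucleic acid, was at 95.5, 65.5 and 102.4 in the sham mice and at 160, 59.8 and 289 in the ON-CR mice, so that ON-CR mouse 5 had the lowest value of all and mouse 6 the highest.

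The IFIT family, whose proteins bind viral RNA, had log2 fold changes closer to 0 than the other groups by their median. Ifit3 was at 4591, 2428 and 3227 normalized counts in the sham mice and at 3802, 3421 and 3841 in the ON-CR mice, with a log2 fold change of 0.16 (SE 0.20, adjusted p by limma 0.759). All ON-CR values lay within the sham range. The promoters of Ifit1, Ifit3 and Ifit3b printed above each hold a pair of ISRE cores. The log2 fold changes of Ifit1, Ifit2, Ifit3 and Ifit3b ran from 0.16 to 0.27 with a median of 0.215. For all 4 of these genes the 95% interval lay below a doubling, the highest upper bound being 0.91 for Ifit3b. Ifit3 and Ifit3b share their sequence over 51.2% of the 50-base words of Ifit3, so their reads could not be fully separated.

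The OAS family makes the short oligoadenylates that activate RNase L. Oasl2 was at 1984, 845 and 1325 in the sham mice and at 1634, 1508 and 1991 in the ON-CR mice (log2 fold change 0.38, SE 0.26, adjusted p by limma 0.524). Oas1a was at 364, 141 and 212 against 299, 290 and 557, and 57.6% of its words also occur in transcripts of Oas1g. Oas3 was at 32.9, 7.97 and 59.2 against 49.9, 47.2 and 83.1, and Oas2 at 71.1, 23.9 and 49.8 against 54.8, 28.3 and 41.5. Sham mouse 2 was the lowest of all 6 mice in each of the 5 genes.

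Among the 8 GTPases ON-CR mouse 6 stood apart in most. Irgm1, an immunity-related GTPase that acts in autophagy and in control of the other family members, was at 1387, 1017 and 1357 normalized counts in the sham mice and at 1793, 1112 and 3945 in the ON-CR mice. Mouse 6 was far above all other mice and mouse 5 lay within the sham range, with a log2 fold change of 0.68 (SE 0.36, adjusted p by limma 0.402). Igtp (Irgm3), which protects against vacuolar parasites, was at 726, 317 and 560 against 600, 423 and 2530. Iigp1, an effector of the same family, was at 339, 239 and 612 against 577, 259 and 2055. In both, ON-CR mice 4 and 5 were inside the sham range, and without mouse 6 the log2 fold change of Igtp was -0.004.

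The guanylate-binding proteins attack the vacuoles of intracellular pathogens. Gbp2 was at 931, 618 and 857 normalized counts in the sham mice and at 1268, 1010 and 2833 in the ON-CR mice, the only GTPase of the 8 with separate groups (log2 fold change 0.96, SE 0.32, adjusted p by limma 0.179). Gbp7 was at 941, 927 and 1030 against 1568, 807 and 2490, and Gbp3 at 1714, 1021 and 868 against 642, 703 and 1555. Gbp3 thus went below the sham range in mice 4 and 5 and had a log2 fold change of -0.37 (SE 0.33). Mx1, the dynamin-like restriction factor, was near the floor, with 2 estimated reads in sham mouse 2, and its log2 fold change of 1.29 (SE 0.73) rests on normalized counts of 23.2, 1.77 and 15.97 against 26.9, 21.2 and 26.0. Mx2 was at 23.5 to 43.7 in the sham mice and 34.3 to 46.9 in the ON-CR mice.

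**Figure D3:**
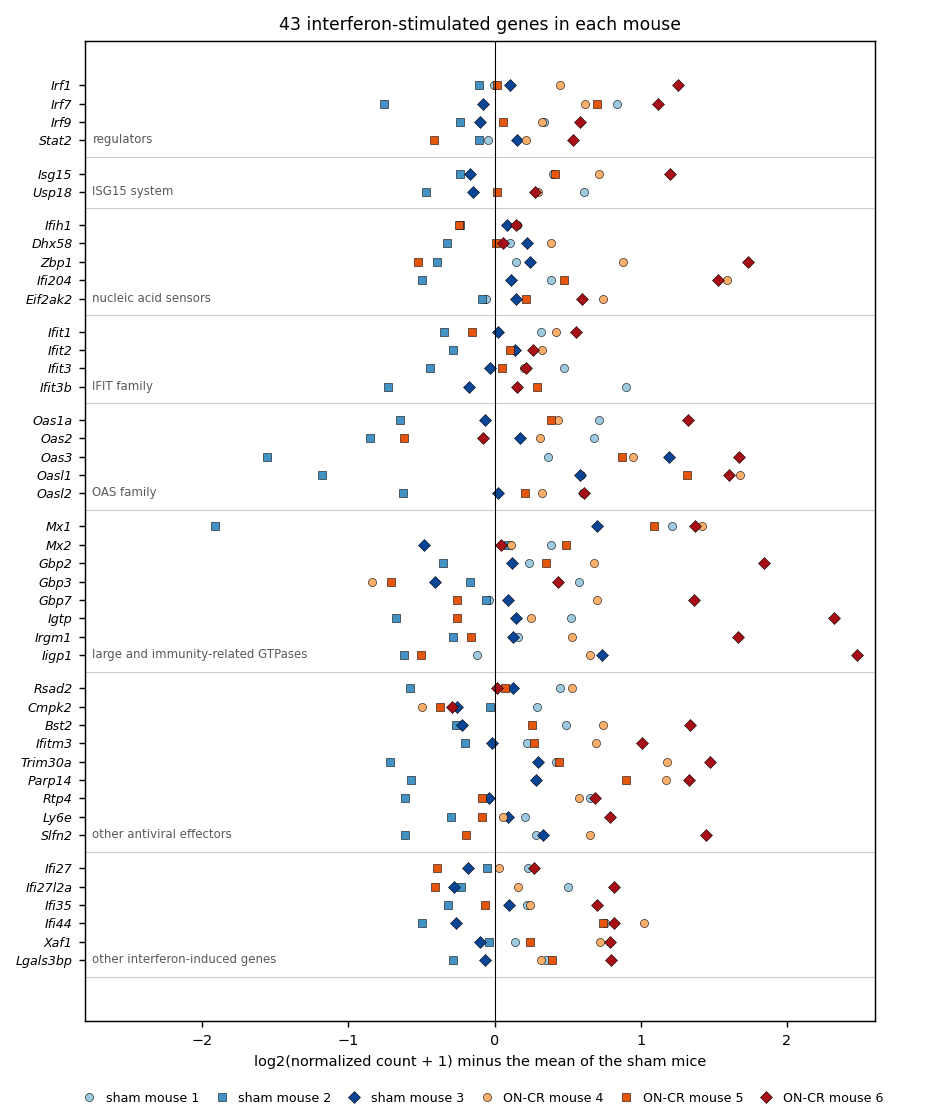
Each row is 1 of the 43 members and each symbol 1 mouse, placed by its log2(normalized count + 1) minus the mean of the 3 sham mice (blue symbols sham, orange and red symbols ON-CR), with rows grouped by role. ON-CR mouse 6 (dark red diamonds) is the highest of the 6 in 27 rows and sham mouse 2 (mid-blue squares) the lowest in 33.

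Of the other antiviral effectors, Trim30a, a ring-finger protein that restrains inflammatory signalling, was at 240, 109 and 220 normalized counts in the sham mice and at 407, 244 and 498 in the ON-CR mice (log2 fold change 1.03, SE 0.33, adjusted p by limma 0.159). Bst2 (tetherin), which holds budding virions at the cell surface, was at 1058, 629 and 645 against 1265, 899 and 1904. Sham mouse 1 exceeded ON-CR mouse 5, and the log2 fold change was 0.78 (SE 0.27). Rsad2 (viperin), which makes a chain-terminating nucleotide, was at 508, 250 and 408 against 537, 391 and 377 (log2 fold change 0.20, SE 0.25). Cmpk2, its genomic neighbour and a mitochondrial nucleotide kinase, was at 531, 425 and 363 in the sham mice and at 307, 335 and 354 in the ON-CR mice, the single member whose ON-CR values all lay below the sham values (log2 fold change -0.39, SE 0.17, adjusted p by limma 0.296). Rtp4, Ly6e and Slfn2 had log2 fold changes of 0.39, 0.25 and 0.63 with overlapping groups.

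In the last group Ifi27, a mitochondrial protein that interferon alpha induces, was at 4143, 3406 and 3120 normalized counts in the sham mice and at 3612, 2691 and 4251 in the ON-CR mice. Its log2 fold change of -0.03 (SE 0.17, adjusted p by limma 0.956) turned positive with scaling by library total (0.10) and with voom (0.15). Xaf1, a pro-apoptotic partner of XIAP, was at 360, 318 and 304 against 539, 386 and 566, with separate groups (log2 fold change 0.58, SE 0.17, adjusted p by limma 0.126). Ifi44 was at 212, 88.5 and 104 against 255, 210 and 221, and Lgals3bp, a secreted glycoprotein, at 3033, 1954 and 2270 against 2965, 3122 and 4139, each with overlapping groups because of sham mouse 1. Ifi35 and Ifi27l2a had log2 fold changes of 0.29 and 0.19.

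The spread within the groups was ordered by mouse. For each mouse the median over the 43 genes of the difference from the sham mean was 0.351, -0.345 and 0.094 on the log2 scale for the sham nerves (mice 1, 2, 3) and 0.448, 0.059 and 0.799 for the ON-CR nerves (mice 4, 5, 6). Over all genes the same medians ran from 0.000 to 0.039. Sham mouse 1 was thus nearer to ON-CR mouse 4 than to sham mouse 2, and ON-CR mouse 5 lay between sham mice 2 and 3. Mouse 6 was the highest of all 6 mice in 27 of the 43 genes (all genes 20.0%) and sham mouse 2 the lowest in 33 (all genes 17.0%). ON-CR mouse 6 lay above all 3 sham mice in 33 of the 43 genes (all genes 31.4%), mouse 4 in 24 (all genes 28.4%) and mouse 5 in 11 (all genes 32.0%). The 43 genes together took 0.233%, 0.151% and 0.200% of the normalized counts in the sham mice and 0.264%, 0.218% and 0.370% in the ON-CR mice.

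**Figure D4:**
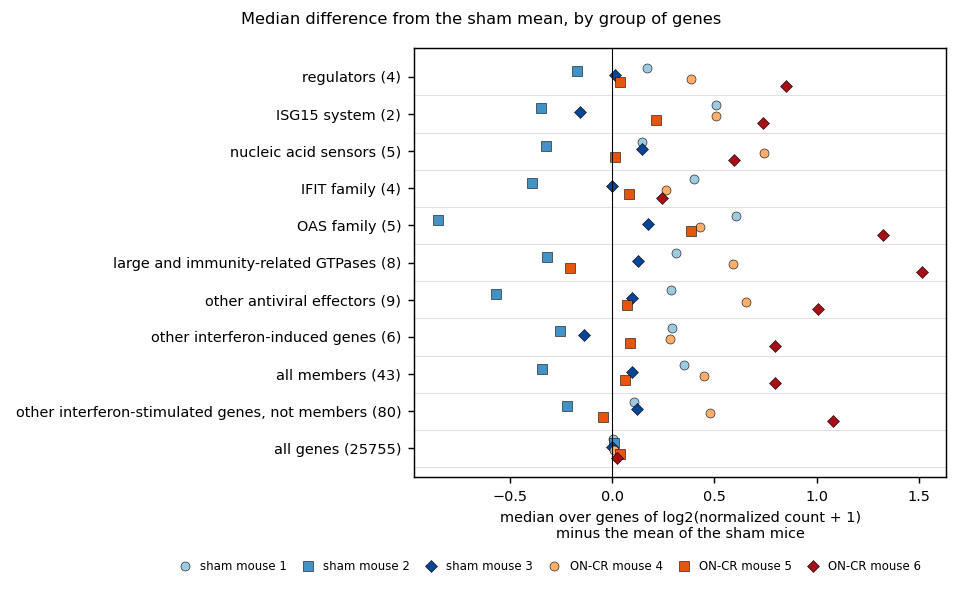
Each symbol is the median, over the genes of a group (number of genes in brackets), of a mouse's log2(normalized count + 1) minus the sham mean. ON-CR mouse 6 is at 1.518 for the large and immunity-related GTPases and at 0.241 for the IFIT family, and all 6 mice lie close to 0 over all genes.

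The groups of genes differed in which mouse stood out. In ON-CR mouse 6 the median difference was 1.754 for the 6 GBP and IRG GTPases and 0.241 for the 4 IFIT genes, while in ON-CR mouse 4 the same medians were 0.59 and 0.263 and in ON-CR mouse 5 they were -0.257 and 0.08. The 6 leave out Mx1 and Mx2, and for all 8 GTPases the median in mouse 6 was 1.518. In mouse 6 the other role groups ran from 0.598 (nucleic acid sensors) to 1.325 (OAS family), so its higher values were not confined to the GTPases. For the IFIT genes the highest median was that of sham mouse 1, at 0.398. In 9 members mouse 6 reached at least 2 times the mean of ON-CR mice 4 and 5 (20.9%, all genes 8.14%), and these were all 6 GBP and IRG GTPases with Irf1, Zbp1 and Slfn2. Mouse 6 also had the highest summed markers of T cells (1049 normalized counts over Cd3e, Cd3d, Cd3g, Cd2 and Trac), where the sham mice had 145, 228 and 400 and ON-CR mice 4 and 5 had 377 and 162. Its 6 B and plasma cell markers summed to 14347, mostly Jchain at 12738, where the other 5 mice had 94.7 to 503. Its 5 natural killer cell markers summed to 165, against 35.7 to 84.5 in the other mice. The 5 astrocyte markers were also highest in mouse 6, at 260250 against 146340 to 231050. Sums for oligodendrocytes and neutrophils were highest in sham mouse 1, for plasmacytoid dendritic cells in ON-CR mouse 5 and for endothelium in ON-CR mouse 4. The part of any of these cell types in the values of mouse 6 was not tested, and in whole nerve more cells of a type cannot be told apart from more RNA per cell. The 4 airway markers summed to 6205 in mouse 6, 7892 in sham mouse 3 and 5393 in ON-CR mouse 5. In the other mice that sum was 81.8 to 128, and a part of tissue other than nerve in these values was not tested.

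The 10 microglia and macrophage markers summed to 25754, 22084 and 19820 normalized counts in the sham mice and to 39911, 27675 and 43384 in the ON-CR mice, with 4 of them (Cd68, C1qa, Aif1 and C1qb) called higher and none lower. Among the ON-CR mice mouse 6 was highest and mouse 5 lowest, as for the median of the 43 genes, while among the sham mice the lowest was mouse 3 for the markers and mouse 2 for the 43 genes. The defining microglial markers P2ry12 and Tmem119 had log2 fold changes of -0.35 and -0.27. The part of microglia in the interferon-stimulated genes was not tested.

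The second comparison took the 42 other genes of the interferon pathway that the table held, from ligands to feedback inhibitors. Of these, 2 passed the adjusted p of 0.05 and both rose after ON-CR (4.76%, all genes 0.971% higher). Of 21 interferon genes searched for, 2 were found in the table, and both were near the floor. Ifng, the gene of interferon gamma, was at 3.18, 1.77 and 2.82 normalized counts in the sham mice and at 1.00, 0 and 4.15 in the ON-CR mice, where 3 reads correspond to 2.66 to 3.18 normalized counts. Ifnk, which encodes interferon kappa, was at 6.37, 7.97 and 0.94 against 1.00, 2.10 and 2.08. No difference in either was detectable at this depth, and the other 19 ligands were not analysed here.

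None of the 6 receptor chains passed. Ifnar1 was at 806, 863 and 726 normalized counts in the sham mice and at 898, 779 and 753 in the ON-CR mice (log2 fold change 0.02, SE 0.13). Ifnar2, Ifngr1, Ifngr2 and Il10rb had log2 fold changes between -0.12 and 0.04, each with overlapping groups, and the small signs of the last 3 turned positive with scaling by library total. Ifnlr1, the lambda receptor chain, was at 1.06 to 3.76 in the sham mice and 1.99 to 7.34 in the ON-CR mice. Among the signal carriers, the receptor kinases Jak1, Jak2 and Tyk2 had log2 fold changes of 0.02, -0.10 and 0.15.

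Irf8, a regulatory factor of the same family that microglia and macrophages depend on, rose after ON-CR. It was at 404, 351 and 396 normalized counts in the sham mice and at 1384, 744 and 1332 in the ON-CR mice, and the lowest ON-CR mouse stood well above the highest sham mouse. The log2 fold change was 1.53 (SE 0.22, adjusted p by limma 0.0073), and the adjusted p was 0.0568 without sham mouse 2 and 0.0902 without ON-CR mouse 6. The sum of microglia and macrophage markers given above was also higher in each ON-CR mouse than in each sham mouse, and their part in the value of Irf8 was not tested. Irf2, Irf3, Irf4 and Irf5 had log2 fold changes from -0.05 to 0.56, none passing.

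Cxcl10, the chemokine that draws Cxcr3-bearing T cells and that both type I interferon and interferon gamma induce, also rose. It was at 173, 65.5 and 196 normalized counts in the sham mice and at 458, 352 and 812 in the ON-CR mice, with mouse 6 highest and no overlap. Its exons overlap those of Art3 on the other strand, and the libraries do not mark strand, so reads of both genes may have been mixed. The log2 fold change was 1.95 (SE 0.41, adjusted p by limma 0.0407), and the adjusted p was 0.168 with robust moderation, 0.0670 without ON-CR mouse 4, 0.0704, 0.1004 and 0.120 without sham mice 3, 1 and 2, and 0.237 without ON-CR mouse 6. Cxcl9, the chemokine most particular to interferon gamma, was at 8.49, 3.54 and 78.9 in the sham mice and at 63.8, 17.8 and 514 in the ON-CR mice. Sham mouse 3 exceeded ON-CR mice 4 and 5, and the log2 fold change of 2.50 had an SE of 1.21. Ccl5 was at 195, 185 and 617 against 342, 148 and 1444, and Cxcl11 at 11.7, 3.54 and 37.6 against 33.9, 14.7 and 112, each with mouse 6 highest.

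**Figure D5:**
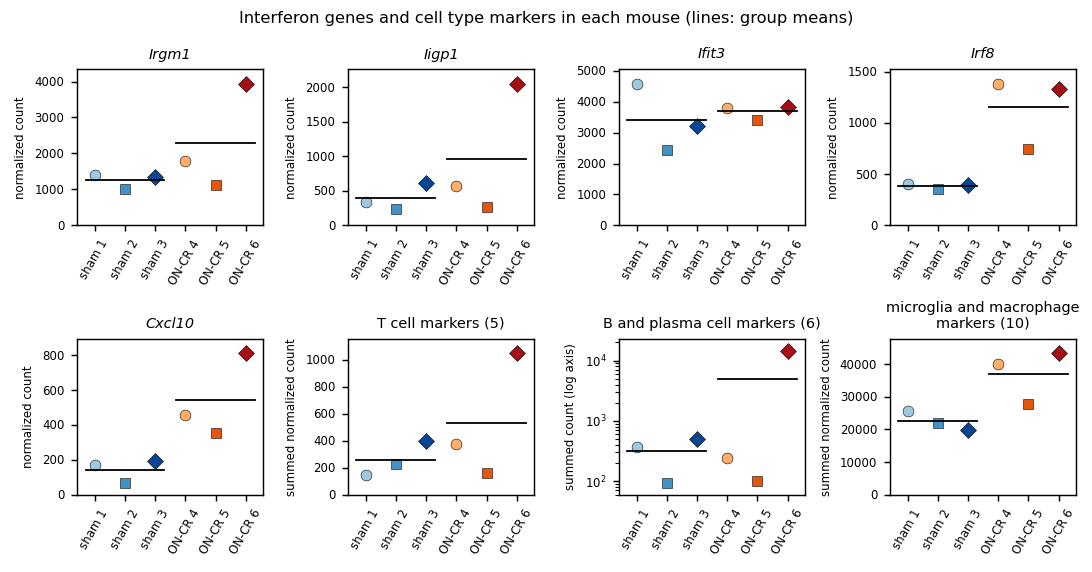
Each panel plots the normalized count of a gene, or the sum over a set of cell type markers, in each mouse, with lines at the group means; the axes start at 0 except that of the B and plasma cell markers, which is logarithmic. ON-CR mouse 6 is at 3945 for Irgm1, 2055 for Iigp1 and 1049 for the T cell markers, above the other mice in each, while Ifit3 is highest in sham mouse 1 at 4591.

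Of the 12 genes of sensing and induction, none passed. Tlr7, the endosomal sensor of single-stranded RNA, came nearest, at 70.0, 88.5 and 74.2 normalized counts in the sham mice and 136, 118 and 182 in the ON-CR mice (log2 fold change 0.88, SE 0.23, adjusted p by limma 0.0906). Mavs, the adaptor of the RNA helicases, had its ON-CR values (515 to 542) below its sham values (560 to 693), with a log2 fold change of -0.22 (SE 0.13). Of the 8 negative regulators none passed either, and 4 had separate groups with higher ON-CR values (all genes 10.5%). Socs3, which blocks cytokine receptor kinases, was at 87.0, 132 and 147 against 295, 177 and 316 (log2 fold change 1.09, SE 0.27, adjusted p by limma 0.0755), Cish was at 30.99 to 44.8 against 72.3 to 117, and Ptpn6 and Trex1 had log2 fold changes of 0.81 and 0.64.

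A further 80 interferon-stimulated genes outside the 43 were tested in the same fit. None passed the adjusted p of 0.05, and 21 had an unadjusted p under 0.05 with higher ON-CR values (26.2%, all genes 7.37%). The log2 fold change was positive for 74 of 80 (all genes 52.8%), with a median of 0.48 (all genes 0.028). The groups were separate in 11 of 80, each with higher ON-CR values (13.8%, all genes 10.5%). In either direction the share among all genes was 21.6%. ON-CR mouse 6 lay above all 3 sham mice in 72 of the 80 (all genes 31.4%), mouse 4 in 55 (all genes 28.4%) and mouse 5 in 12 (all genes 32.0%). The per-mouse medians were 0.104, -0.222 and 0.119 in the sham mice and 0.477, -0.048 and 1.081 in the ON-CR mice, so that here too mouse 6 was highest and mouse 5 fell among the sham mice.

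The 30 members with a listed promoter were also divided by the presence of the ISRE core. The 15 genes with an ISRE core had a median log2 fold change of 0.679 and 14 were positive, and 4 had an unadjusted p under 0.05. The 15 without one had a median of 0.519 with 14 positive and 8 under 0.05, and of these 8 Cmpk2 was lower after ON-CR. Over all genes 52.8% were positive and 15.6% had an unadjusted p under 0.05 by limma. The 95% interval excluded a doubling for 22 of the 43, all 4 IFIT genes among them, while 4 members (Oas3, Mx1, Igtp and Iigp1) had an SE above 0.5.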

How the data were processed

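RNA from optic nerves of perfused mice was made into libraries from 10 ng of total RNA with the SMARTer Ultra Low kit, which does not mark strand, and sequenced on an Illumina HiSeq. The authors aligned and counted reads with DRAGEN against an Ensembl mouse assembly (mm10) and median-normalized them in Partek Flow 10.0, per the labels and the study's methods. The deposited values are normalized counts, a signal that is not whole-numbered. Once each library was scaled by what 1 read is worth, 67.0% to 69.5% of values were whole within 0.02, too few for a count model, and this gave the estimated depths and the floor of 3 reads.

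The 43 members and the other gene lists were chosen with earlier results of these data known. Tests were run with limma 3.58.1 on log2(value + 1) (R 4.3.3, trended empirical Bayes, 3 sham and 3 ON-CR mice, no covariate), adjusted over 25755 genes by Benjamini-Hochberg. The procedure was also run on simulated data in which genes varied independently, so shifts shared by many genes within a mouse were not covered. A fold change on this scale understates that of low genes. Nothing shows whether a library labelled as a mouse is 1 nerve, a pair or a pool of several mice. The library of ON-CR mouse 4 held both Xist and Y-linked transcripts. For optic nerve qPCR the paper used 2 mice in each sample. An exact permutation test of 3 against 3 cannot give a two-sided p under 0.1, so none was run. Alternatives were pseudocounts of 0.5 and 2, a mean of at least 10, TMM, upper-quartile and library-total scaling, robust moderation, voom with quality weights, and leaving out each mouse. Voom was given estimated reads rounded to whole numbers, without the median normalization. Named genes were the 4 members with the lowest p, the member with the highest mean in each role, the ligands and receptors, and pathway genes that passed. Some genes of these lists are counted but not reported here by name. All further named genes were picked with their values in view. Gene positions and shared 50-base words came from GENCODE M21 on GRCm38, and promoters from RefSeq. Exons of 13 members overlap another gene's.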

Additional observations from a re-analysis of the deposited data

How the results depend on the processing

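No paired analysis was possible because the sham mice (1 to 3) and the ON-CR mice (4 to 6) share no replicate number. The median of the members stayed positive in every alternative. Of the 43 members 39 were positive in the first comparison. That number was 33 without sham mouse 2, 34 without ON-CR mouse 6 and 38 to 41 in the other fits. The members called were 2 with library-total scaling, 1 with robust moderation and 7 with voom, where 2.39%, 2.76% and 3.34% of all genes were called. The pathway genes called were 1 with robust moderation and 6 with voom, and the other interferon-stimulated genes called were 1, 1 and 3 with library-total scaling, robust moderation and voom. Leaving out 1 mouse at a time gave 0 to 11 members, 0 to 5 pathway genes and 0 to 14 other genes, where 0.260% to 3.32% of all genes were called. Library-total scaling moved the median of all genes to 0.151 and voom to 0.152, with the members at 0.647 and 0.709. Pseudocount, filter, TMM and upper-quartile scaling changed no call in these lists.

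Igtp, at 0.77 with all mice, went to -0.004 without ON-CR mouse 6. With voom the log2 fold change was 0.218 for Oas2 and 0.154 for Ifi27, and with library-total scaling that of Ifi27 was 0.098. Ifngr1, Ifngr2 and Il10rb went to 0.091, 0.013 and 0.077 with library-total scaling and to 0.126, 0.063 and 0.115 with voom. Leave-one-out ranges that crossed 0 were -0.099 to 0.376 for Stat2, -0.035 to 0.504 for Usp18, -0.098 to 0.15 for Ifih1, -0.01 to 0.263 for Dhx58, -0.064 to 0.396 for Ifit3, -0.164 to 0.65 for Ifit3b, -0.557 to 0.21 for Oas2, -0.025 to 0.409 for Mx2, -0.004 to 1.286 for Igtp, -0.084 to 0.428 for Rsad2, -0.012 to 0.423 for Ly6e, -0.179 to 0.15 for Ifi27, -0.125 to 0.488 for Ifi27l2a, -0.057 to 0.078 for Ifnar1, -0.049 to 0.14 for Ifnar2, -0.23 to 0.089 for Ifngr1, -0.238 to 0.001 for Ifngr2 and -0.178 to 0.051 for Il10rb. The cause was not tested.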

Other observations

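A few of the 80 interferon-stimulated genes outside the 43 are given by their values. The genes in this section were picked with their values in view. Slfn9 was at 60.1, 74.5 and 72.8 normalized counts in the sham mice and at 156, 108 and 177 in the ON-CR mice, with separate groups (log2 fold change 1.05, SE 0.24, adjusted p by limma 0.0602). Ifi207, a p200 gene, was at 105, 90.8 and 109 against 173, 149 and 191 (log2 fold change 0.74, SE 0.20). Ifi209 was at 78.2, 43.1 and 92.8 against 155, 101.4 and 167, again without overlap, while Ifi211 overlapped at 78.9, 34.8 and 94.5 against 206, 76.5 and 330. Near-identical copies in these families mean that the counts may have been split between genes.

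Psmb8, an immunoproteasome subunit, was at 836, 691 and 860 normalized counts in the sham mice and at 1441, 816 and 2499 in the ON-CR mice. Tap1, a subunit of the peptide transporter, was at 428, 263 and 320 against 581, 314 and 1039. ON-CR mouse 5 lay within the sham range in both, whereas in Tap2, at 1529, 1486 and 1814 against 1688, 1145 and 2519, it lay below it. Cd274 (PD-L1), an inhibitory ligand for T cells, was at 73.1, 75.2 and 66.1 against 188, 82.7 and 239, with separate groups and a log2 fold change of 1.11 (SE 0.35, adjusted p by limma 0.152).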
